A study of Mus musculus with 18 samples.

Results

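Macrophages of Ch25h-/- mice were compared with macrophages of B6 (C57BL/6) mice at rest, without oxysterol and without stimulus. The comparison used 6 of the 18 libraries of the series, 3 from each genotype, chosen by genotype, treatment and stimulus as the labels give them. The cells are macrophages differentiated in culture from bone marrow, their polyadenylated RNA was sequenced, and the series concerns 25-hydroxycholesterol (25HC) and a Toll-like receptor ligand. Ch25h-/- cells lacked the gene for cholesterol 25-hydroxylase and received no treatment, no stimulus and a stimulation time of 0, and the B6 cells at rest were handled likewise. For reference, 2 further comparisons of the same size are given beside it. In one, Ch25h-/- and B6 cells had received Pam3CSK4 (PAM3) at 300 ng/mL, a lipopeptide that mimics those of bacteria, at a stimulation time of 18 for which the labels give no unit. In the other, B6 cells had received 5 µM of 25HC for 18 hours and were set against the untreated B6 cells at rest. Each library carries a mouse number from 1 to 3. The sources used here give neither age, sex nor whether the genotypes were littermates, nor which stretch of Ch25h is deleted. The labels name no cell type restriction of the knockout.

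Cholesterol 25-hydroxylase is an enzyme of the endoplasmic reticulum that makes 25HC from cholesterol. In macrophages Ch25h is known as an interferon-inducible gene, and 25HC is known to hold back the transcription factor SREBP-2, which drives cholesterol synthesis and LDL uptake, and to activate the liver X receptors (LXR), which drive cholesterol export. The unstimulated comparison therefore concerns the part of gene expression that differs when cells cannot make this oxysterol and have not been provoked to do so.

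The sequence upstream of Ch25h is shown because the knockout removes the product of this single inducible gene, and its level in B6 cells sets what could be lost. The 250 bases before the RefSeq start, on the minus strand of GRCm38.p6 at chr19:34475149-34475398, are given 5′ to 3′ with matches to searched motifs in capitals. RefSeq places that start slightly inside the GENCODE gene.
Ch25h: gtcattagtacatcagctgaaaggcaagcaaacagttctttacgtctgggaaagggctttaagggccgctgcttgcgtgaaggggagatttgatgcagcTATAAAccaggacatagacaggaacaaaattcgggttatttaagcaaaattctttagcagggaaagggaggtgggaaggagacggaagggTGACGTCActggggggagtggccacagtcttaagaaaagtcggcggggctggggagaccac
The first match, TATAAA, the core of a TATA box, began 151 bases before the start, and 12.97% of 27025 mouse promoter windows of the same length held it on either strand. The second, TGACGTCA, a cyclic AMP response element, began 61 bases before the start and was held by 1.62% of windows. CCAAT and the core of an interferon-stimulated response element had no match on either strand of these bases, and 34.5% and 3.04% of windows had one. The matches do not overlap and describe letters only.

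Ch25h-/- libraries at rest held 19188843, 14040513 and 15793804 counts, and B6 libraries held 30753685, 68549136 and 44936844, so that the median depth was 2.85 times larger in B6. Of the variance among the 6 libraries, 66.2% lay on a first component that set both libraries numbered 2 apart from the others. Replicate 2 scored 69.8 on it in Ch25h-/- and 25.4 in B6, against -36.9 to -12.1 in the other 4 libraries. Within each number the Ch25h-/- library scored higher, also at -25.4 against -36.9 for number 1 and -12.1 against -20.8 for number 3. The second component, with 12.9%, placed the Ch25h-/- libraries at 11.5 to 16.4 and the B6 libraries at -27.7 to -5.72. Macrophage genes stood high in all 6 libraries, with Lyz2, which encodes lysozyme, at 18241, 24819 and 19246 CPM (counts scaled to a common library size) in Ch25h-/- cells and 14607, 19136 and 15485 CPM in B6 cells. With 3 libraries a group, the edgeR p-values rest on the spread between cultures of separately numbered mice within all 6 groups of the series. That model of 18 libraries includes cells given PAM3 or 25HC. Models of the 6 libraries alone are named where they are used.

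**Figure D1:**
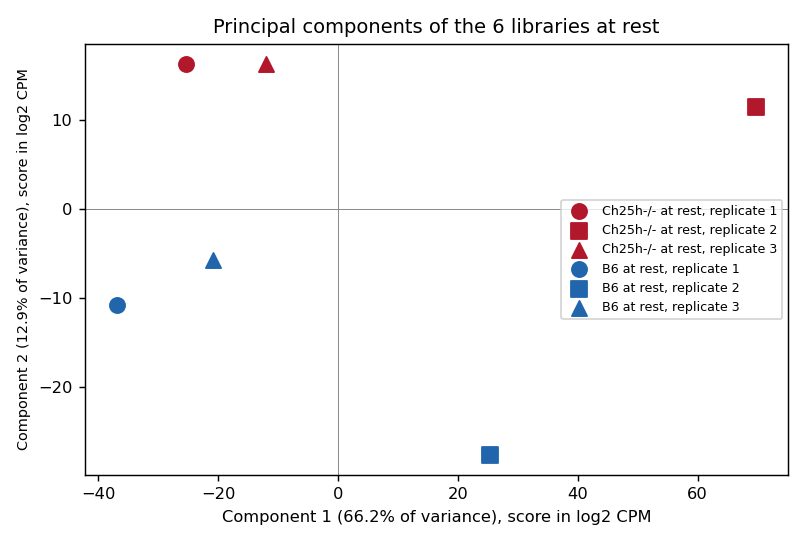
Scores of the 6 libraries at rest on their first and second principal components, in log2 CPM, with Ch25h-/- in red, B6 in blue and the mouse number as the marker shape. Both libraries numbered 2 lie at the right, at 69.8 and 25.4, and the genotypes separate along the vertical axis, which carries 12.9% of the variance.

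Ch25h itself was nearly absent from the knockout libraries. It lies at chr19:34473778-34475164 on the minus strand of GRCm38 (GENCODE M21), as a single exon of 1387 bases. It had 0.0990, 0 and 0.119 CPM in Ch25h-/- cells, which were 2, 0 and 2 counts, against 20.4, 3.16 and 10.2 CPM in B6 cells, which were 660, 227 and 490 counts. All Ch25h-/- libraries were below all B6 libraries, and among B6 cells replicate 2 was the lowest. The log2 fold change was -7.12 ± 0.89 (SE, edgeR's quasi-likelihood test, adjusted p = 0.00955). In summed counts, 4 in Ch25h-/- against 1377 in B6, the level in B6 was 117 times that in Ch25h-/- (95% interval 45.4 to 428, counting error only). With mouse numbers paired the adjusted p was 5.6e-05 and with DESeq2 it was 1.6e-11. By edgeR it missed the threshold without Ch25h-/- replicate 2 (edgeR adjusted p = 0.0744), without Ch25h-/- replicate 3 (0.117), which leave 2 libraries of 0 to 2 counts each, and when the model held only the 6 libraries (1.00).

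Ch25h was the only gene of 12741 tested that passed an adjusted p below 0.05 in the model of all 18 libraries, 0.00785% of genes. No other gene rose or fell by that test. At an unadjusted p below 0.05 there were 704 genes, 5.53% of those tested, of which 301 (2.36%) were higher and 403 (3.16%) lower in Ch25h-/- cells. For 1297 genes, 10.2%, the libraries of the genotypes did not overlap, 597 (4.69%) higher and 700 (5.49%) lower. The median log2 fold change over all genes was -0.01 and the median SE 0.18. The absence of calls comes with bounds: for 8894 of 9698 genes (91.7%) with at least 5 CPM in B6, the 95% interval of the log2 fold change lay within 1 in either direction, a factor of 2 up or down, and for 5754 within 0.5. Fold changes of 2 or more were estimated for 296 genes (2.32%), 152 up and 144 down, none beside Ch25h past the threshold.

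**Figure D2:**
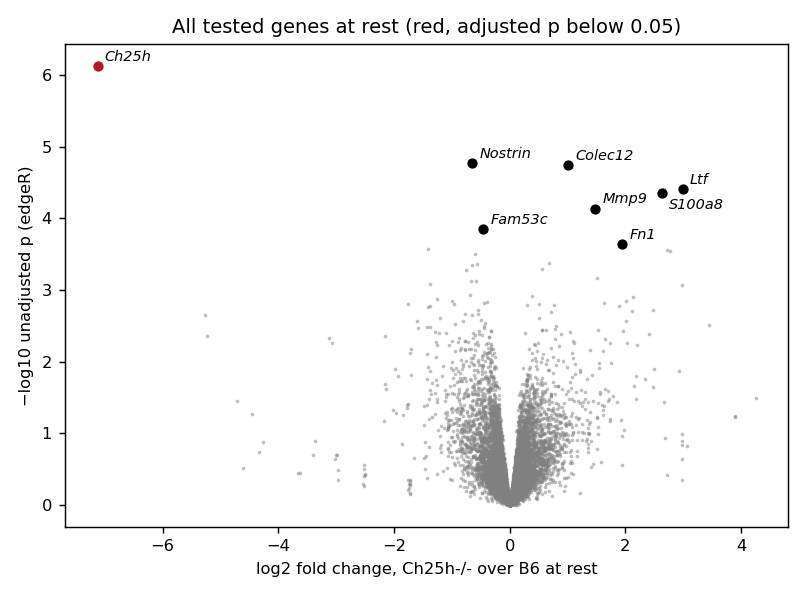
Each of the 12741 tested genes by log2 fold change, Ch25h-/- over B6 at rest (horizontal), and by −log10 of the unadjusted edgeR p (vertical). Ch25h, in red at -7.12, is the only gene with an adjusted p below 0.05, and the 7 genes with the next smallest p are labelled in black.

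No gene of cholesterol synthesis differed between the genotypes past the threshold. Of 20 measured genes of cholesterol synthesis, 0 passed at an unadjusted p below 0.05 in either direction, against the 5.53% of all genes, and their log2 fold changes ran from -0.14 to 0.25 with a median of 0.06. Hmgcs1, the synthase near the head of the pathway, had 70.6, 32.8 and 53.7 CPM in Ch25h-/- cells and 58.8, 29.7 and 53.4 CPM in B6 cells. The genotypes overlapped and replicate 2 was the lowest of each, with a log2 fold change of 0.15 ± 0.29 and a 95% interval of -0.46 to 0.76. Sqle, the epoxidase that commits squalene to sterols, had 49.0, 6.45 and 27.0 CPM in Ch25h-/- cells and 40.3, 8.53 and 28.8 CPM in B6 cells, at 0.10 ± 0.54, with the same low replicate 2. For 15 of the 20 genes the interval lay within 1 in either direction. The sign of the list's median turned with the libraries used, from -0.34 without Ch25h-/- replicate 1 to 0.35 without Ch25h-/- replicate 2.

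The 10 measured genes of SREBP control and LDL uptake had a median log2 fold change of -0.07. At an unadjusted p below 0.05, 1 was lower (3.16% of all genes) and none higher (2.36%). The lower one did not overlap between genotypes (5.49% of all genes). Insig1, which retains SREBP in the endoplasmic reticulum and is itself an SREBP target, had 106, 42.3 and 82.5 CPM in Ch25h-/- cells and 89.2, 49.5 and 78.6 CPM in B6 cells, with an interval of -0.57 to 0.75. The genotypes overlapped.

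Added 25HC lowered several of these genes in B6 cells. That comparison shares the 3 untreated B6 libraries with the genotype comparison, so the values are set side by side only. Insig1 had a log2 difference of 0.09 ± 0.31 in Ch25h-/- against B6 and of -1.06 ± 0.32 in 25HC-treated against untreated B6 (edgeR adjusted p = 0.0229). For Hmgcs1 these log2 differences were 0.15 ± 0.29 and -0.93 ± 0.29 (edgeR adjusted p = 0.0285). The medians of the 20 synthesis genes were 0.06 for the genotype and -0.75 for 25HC, which lowered 7 of them by the same test. Over all genes 25HC changed 3334 (26.2%), 1886 higher (14.8%) and 1448 lower (11.4%).

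LXR receptors and targets lay on both sides of 0, with 9 above and 8 below, and log2 fold changes from -0.64 to 1.74. Of 17 measured genes 2 were lower at an unadjusted p below 0.05 (3.16% of all genes) and none higher (2.36%), with a median log2 fold change of 0.00. With the block within state 2 were lower (6.24% of all genes) and 4 higher (5.06%). Without 1 library 0 to 2 were lower and 0 to 2 higher: 2 were higher without B6 replicate 2 or without Ch25h-/- replicate 1, none was lower and 1 higher without Ch25h-/- replicate 3, and 1 was lower without any 1 of the B6 replicates. Smpdl3a, a secreted phosphodiesterase induced by LXR, had 296, 285 and 276 CPM in Ch25h-/- cells and 356, 413 and 338 CPM in B6 cells. All Ch25h-/- libraries were lower than all B6 libraries, with a log2 fold change of -0.37 ± 0.14 (edgeR adjusted p = 0.835). Lpl, lipoprotein lipase, had 3719, 1378 and 2520 CPM in Ch25h-/- cells and 4619, 2963 and 4292 CPM in B6 cells, a log2 fold change of -0.64 ± 0.28 (edgeR adjusted p = 0.890), with overlap between the groups. Abca1, the transporter that loads cholesterol onto apolipoprotein A-I, had 903, 2758 and 1115 CPM in Ch25h-/- cells and 642, 1574 and 994 CPM in B6 cells, with an interval of -0.23 to 1.38. Abcg1, which exports cholesterol to HDL, had 255, 365 and 184 CPM in Ch25h-/- cells and 240, 418 and 299.8 CPM in B6 cells, with an interval of -0.72 to 0.21.

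Apoe, the LXR target that encodes apolipoprotein E, depended on the pairing. It had 1289, 4063 and 1482 CPM in Ch25h-/- cells and 518, 1948 and 739 CPM in B6 cells. The ranges overlapped, and within each mouse number the Ch25h-/- library was the higher. Its log2 fold change was 1.09 ± 0.62 without pairing (edgeR adjusted p = 0.930) and 1.12 ± 0.18 with mouse numbers as a block within each state (edgeR adjusted p = 0.0346).

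Other arms of lipid handling held few differences. Among 12 measured genes of oxysterol metabolism and its receptors, Ch25h and Osbp2 were lower at an unadjusted p below 0.05 (3.16% of all genes). None was higher (2.36%). With the block within state 2 were lower and 2 higher (6.24% and 5.06% of all genes). Osbp2, an oxysterol-binding protein, had 1.39, 1.37 and 1.31 CPM in Ch25h-/- cells and 1.82, 2.66 and 2.45 CPM in B6 cells, a log2 fold change of -0.78 ± 0.24 (edgeR adjusted p = 0.663), with no overlap. Gpr183, the receptor for the 7-hydroxylated product of 25HC, had 43.9, 31.3 and 56.4 CPM in Ch25h-/- cells and 42.6, 32.4 and 40.5 CPM in B6 cells, with an interval of -0.31 to 0.68. Cyp27a1, which makes 27-hydroxycholesterol, had 50.2, 227 and 68.3 CPM in Ch25h-/- cells and 30.1, 128 and 58.1 CPM in B6 cells, highest in replicate 2 of both genotypes. None of the 15 measured genes of fatty acid synthesis and none of the 14 of cholesterol esters and lipid droplets reached an unadjusted p below 0.05, with medians of -0.03 and -0.10. With the block within state 2 of those 14 were lower (6.24% of all genes) and none higher (5.06%), and none of those 15 reached it.

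**Figure D3:**
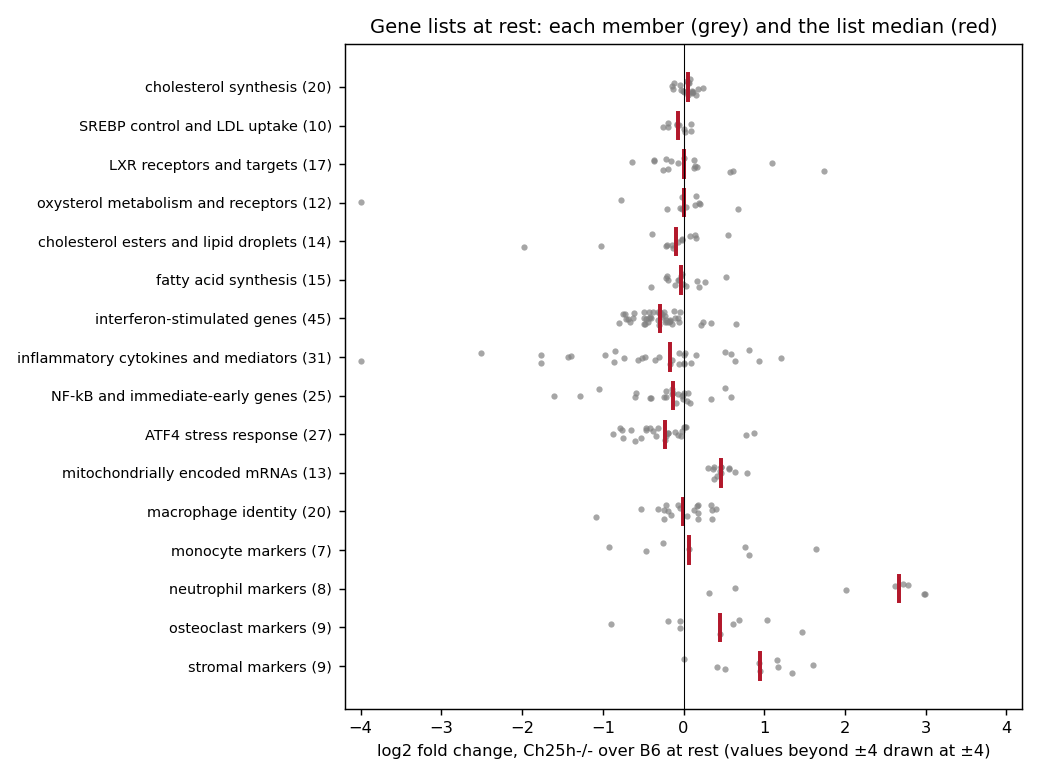
Log2 fold change at rest, Ch25h-/- over B6, of each tested member (grey) of 16 gene lists, with the list median in red and the number of tested members in brackets. Sterol lists centre near 0, with medians of -0.10 to 0.06, the neutrophil list at 2.67 and the interferon list at -0.29, and Ch25h is drawn at the left edge of the oxysterol list.

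Below the threshold, the smallest p-values after Ch25h belonged to genes that a pairing of mouse numbers or DESeq2 did call. These genes were picked after their values were seen. With numbers as a block within each state, 23 genes (0.181%) passed, 10 higher (0.0785%) and 13 lower (0.102%) in Ch25h-/- cells. DESeq2 called 21 (0.165%), 11 higher (0.0863%) and 10 lower (0.0785%), and 8 genes were called by both. A block fitted to the 6 libraries alone called 2 of 12094 genes (0.0165%), Mmp9 higher and Ch25h lower (0.00827% each). All 23 block calls had the same direction in 3 of 3 numbered pairs, which selection by that pairing favours. Of them 11 did not overlap between genotypes, beside 10.2% of all genes, in the same libraries that gave the calls. Neutrophil markers, described further on, were higher in the same libraries, and their part in these differences was not tested. In bulk RNA, more cells of a type and more RNA per cell cannot be told apart.

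Of the genes higher in Ch25h-/- cells, Colec12, a scavenger receptor with a collectin domain, had 66.1, 34.3 and 51.1 CPM in Ch25h-/- cells against 23.2, 24.8 and 27.1 CPM in B6 cells. All Ch25h-/- libraries were above all B6 libraries, with replicate 2 the lowest of them. The log2 fold change was 1.01 ± 0.17 (edgeR adjusted p = 0.0776 without pairing, 0.0393 with the block, 2.8e-05 with DESeq2), and over the models that left out 1 library the adjusted p ran from 0.00048 to 0.747. Mmp9, a secreted gelatinase, had 38.6, 42.4 and 32.2 CPM in Ch25h-/- cells and 12.2, 15.9 and 12.6 CPM in B6 cells, again without overlap. Its log2 fold change was 1.47 ± 0.27 (edgeR adjusted p = 0.155 without pairing, 0.0539 with the block within state). Fn1, fibronectin, had 12.7, 10.3 and 4.83 CPM in Ch25h-/- cells and 2.10, 3.13 and 1.97 CPM in B6 cells, a log2 fold change of 1.94 ± 0.41 (edgeR adjusted p = 0.328 without pairing, 0.0252 with the block). Ms4a4a, a membrane protein of macrophages, varied with both the mouse number and the genotype. It had 30.8, 337 and 55.4 CPM in Ch25h-/- cells and 5.96, 59.5 and 17.2 CPM in B6 cells, so that replicate 2 was highest in each genotype and every pair was higher in Ch25h-/-. Its log2 fold change was 2.34 ± 0.88 without pairing (edgeR adjusted p = 0.820) and 2.17 ± 0.18 with the block (0.00038).

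Of the genes lower in Ch25h-/- cells, Nostrin, an adaptor that brings endothelial nitric oxide synthase off the membrane, had 25.5, 23.0 and 26.6 CPM in Ch25h-/- cells and 41.5, 38.2 and 38.2 CPM in B6 cells. The groups were far apart relative to their spread, at -0.65 ± 0.11 on the log2 scale (edgeR adjusted p = 0.0776 without pairing, 0.0303 with the block, 4.1e-06 with DESeq2). Fam53c had 55.8, 46.9 and 50.5 CPM in Ch25h-/- cells and 73.9, 69.9 and 66.2 CPM in B6 cells, a log2 fold change of -0.45 ± 0.09 (edgeR adjusted p = 0.259 without pairing, 0.0303 with the block). Chst3, a chondroitin sulfotransferase, had 3.46, 1.71 and 3.81 CPM in Ch25h-/- cells and 10.01, 5.50 and 8.06 CPM in B6 cells, at -1.37 ± 0.33 (edgeR adjusted p = 0.496 without pairing, 0.0170 with the block). Slc2a3, the glucose transporter GLUT3, had 12.2, 10.9 and 14.3 CPM in Ch25h-/- cells and 19.8, 16.0 and 19.9 CPM in B6 cells, at -0.57 ± 0.13 (edgeR adjusted p = 0.384 without pairing, 0.0471 with the block). None of these 4 genes, picked from calls on the same libraries, overlapped between genotypes (5.49% of all genes on the lower side).

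**Figure D4:**
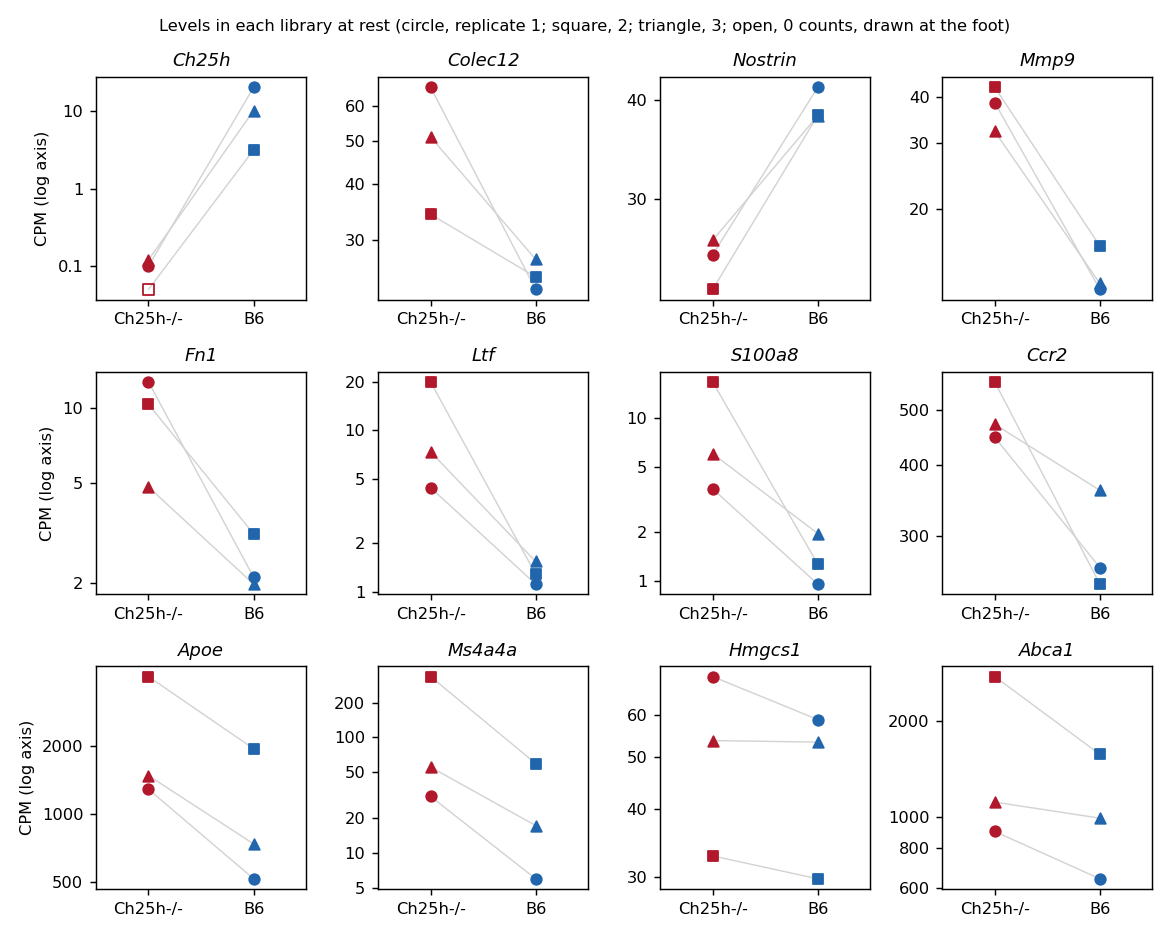
CPM of 12 genes in each library at rest on log axes, Ch25h-/- at the left of each panel and B6 at the right, with lines joining libraries of the same mouse number. Colec12, Mmp9, Fn1 and Nostrin do not overlap between genotypes, Apoe and Ms4a4a overlap but differ within every pair, and Hmgcs1 overlaps.

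Interferon-stimulated genes leaned lower by an amount that no test called. Of 45 measured genes none reached an unadjusted p below 0.05 in either direction. Of the 45, 41 had a log2 fold change below 0, beside 6549 of all 12741 genes, and the median was -0.29, against -0.01 over all genes. For 16 of the 45 all Ch25h-/- libraries lay below all B6 libraries, against 5.49% of all genes. The count at an unadjusted p below 0.05 moved with the model, to 2 higher and 23 lower with the block in the 6 libraries alone (5.8% and 6.85% of all genes) and 1 higher and 1 lower with the block within state (5.06% and 6.24%). In the 6 libraries alone without a block none was higher and 13 were lower, beside 140 and 266 of 12094 genes. Irf7, the transcription factor that amplifies interferon production, had 234, 253 and 285 CPM in Ch25h-/- cells and 512, 541 and 285 CPM in B6 cells. B6 replicate 3 lay beside the highest Ch25h-/- library, and the log2 fold change was -0.79 ± 0.41 (edgeR adjusted p = 0.904). Oasl1, which restrains Irf7 translation in mice, had 22.3, 23.7 and 31.4 CPM in Ch25h-/- cells and 46.0, 46.8 and 31.8 CPM in B6 cells, with replicate 3 level between genotypes. Isg20, an exonuclease, had 4.70, 6.24 and 4.65 CPM in Ch25h-/- cells and 9.67, 10.3 and 5.73 CPM in B6 cells. For these 3 genes replicate 3 was the closest pair.

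Of 31 measured inflammatory mediators 3 chemokines were lower in Ch25h-/- cells at an unadjusted p below 0.05 (3.16% of all genes) and none was higher (2.36%). Only 21 of the 31 passed the filter in the 6 libraries at rest alone, where their median was -0.36. There 2 were lower and 1 higher at that level, beside 266 and 140 of 12094 genes. Among the 31, 5 had 0 counts in all 3 Ch25h-/- libraries and 3 in all 3 B6 libraries. Libraries did not overlap for 3 mediators on the lower side and 1 on the higher (5.49% and 4.69% of all genes). The higher was Cxcl1, a neutrophil attractant with 0.891, 1.10 and 1.07 CPM in Ch25h-/- cells and 0.742, 0.334 and 0.748 CPM in B6 cells. Ccl4, a chemokine that attracts monocytes and T cells, had 55.4, 13.2 and 41.1 CPM in Ch25h-/- cells and 151, 68.1 and 78.4 CPM in B6 cells, at -1.43 ± 0.41 on the log2 scale (edgeR adjusted p = 0.663, 0.0612 with the block). Ccl2, the main ligand of CCR2, had 38.5, 3.91 and 26.9 CPM in Ch25h-/- cells and 166, 13.8 and 58.9 CPM in B6 cells, lower within each pair, at -1.77 ± 0.79 (edgeR adjusted p = 0.890). Ccl7, which also binds CCR2, had 14.6, 2.33 and 11.3 CPM in Ch25h-/- cells and 71.8, 4.91 and 21.4 CPM in B6 cells. Tnf had 13.4, 5.69 and 13.6 CPM in Ch25h-/- cells and 36.2, 11.1 and 17.5 CPM in B6 cells, at -0.97 ± 0.50 (edgeR adjusted p = 0.904). Without B6 replicate 1, which was the highest library for all 4 of these genes, 1 mediator was lower at an unadjusted p below 0.05 and the list's median was 0.00 in place of -0.17. Without Ch25h-/- replicate 2, or without replicate 3, it was 1 mediator as well, without B6 replicate 2 it was 7, and with the block within state 8 were lower and 1 higher (6.24% and 5.06% of all genes).

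Of 25 measured NF-kB and immediate-early genes 6 were lower at an unadjusted p below 0.05 (3.16% of all genes) and none higher (2.36%), with a median of -0.13. Egr1, a zinc finger factor induced within minutes of growth factor signalling, had 3.12, 4.25 and 3.22 CPM in Ch25h-/- cells and 6.71, 4.63 and 10.5 CPM in B6 cells, at -1.04 ± 0.33 (edgeR adjusted p = 0.663). Dusp1, the phosphatase that ends MAP kinase signalling, had 14.8, 14.2 and 12.8 CPM in Ch25h-/- cells and 26.5, 18.1 and 19.1 CPM in B6 cells, at -0.60 ± 0.25 (edgeR adjusted p = 0.859). Egr3, Fosb, Ier2 and Jun made up the rest, and none of the 6 overlapped between genotypes (5.49% of all genes on the lower side). Leaving out 1 library at a time left 3 to 6 genes of the list lower at that level, 3 without Ch25h-/- replicate 3.

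Among 19 Toll-like receptors and adaptors 2 were higher and 1 lower at an unadjusted p below 0.05 (2.36% and 3.16% of all genes). Cd14, the co-receptor that hands lipopolysaccharide and lipopeptides to Toll-like receptors, had 507, 653 and 483 CPM in Ch25h-/- cells and 938, 696 and 726 CPM in B6 cells, at -0.52 ± 0.20 (edgeR adjusted p = 0.826). Tlr5, the flagellin receptor, had 10.7, 69.4 and 19.7 CPM in Ch25h-/- cells and 10.6, 16.8 and 11.7 CPM in B6 cells, a difference carried by replicates 2 and 3. Of 16 inflammasome genes 1 was higher at that level (2.36% of all genes) and none lower (3.16%). The higher was Mefv, which encodes pyrin, with 2.23, 13.2 and 3.94 CPM in Ch25h-/- cells and 0.804, 2.35 and 1.43 CPM in B6 cells. It passed with DESeq2 (DESeq2 adjusted p = 0.0220) and not with edgeR (0.559).

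In the stress and metabolic lists, ATF4 targets also leaned lower. Of 27 measured genes of the ATF4 response, which cells use when amino acids are short or the endoplasmic reticulum is loaded, 5 were lower and 1 higher at an unadjusted p below 0.05 (3.16% and 2.36% of all genes), 22 had a log2 fold change below 0, and the median was -0.23. Trib3, a pseudokinase that feeds back on ATF4, had 3.81, 2.40 and 3.64 CPM in Ch25h-/- cells and 7.76, 5.25 and 5.34 CPM in B6 cells, at -0.88 ± 0.26 (edgeR adjusted p = 0.663). Ddit3, the factor CHOP, had 38.3, 45.6 and 44.7 CPM in Ch25h-/- cells and 57.2, 74.0 and 45.5 CPM in B6 cells, at -0.46 ± 0.16 (edgeR adjusted p = 0.756). Trib3 did not overlap between genotypes, and Ddit3 did, through B6 replicate 3. Vldlr, a lipoprotein receptor, was the higher one, with 3.22, 4.59 and 4.11 CPM in Ch25h-/- cells and 1.61, 3.00 and 2.26 CPM in B6 cells. Leaving out 1 library at a time put the median between -0.39 and -0.08, -0.08 being without B6 replicate 1. The count lower at that level was 2 without Ch25h-/- replicate 2 and 3 without Ch25h-/- replicate 3 or B6 replicate 1. It was 11 with the block within state (6.24% of all genes) and 13 with the block in the 6 libraries alone (6.85%). In 25HC-treated against untreated B6 cells, with the shared B6 libraries, the same list had a median of 1.34 and 24 genes higher by edgeR's adjusted p.

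Messenger RNAs encoded by mitochondrial DNA were higher in Ch25h-/- cells for every gene measured, with no call by edgeR over all genes and 1, mt-Atp6, by DESeq2. Of 13 genes 12 were higher at an unadjusted p below 0.05 and did not overlap between genotypes, beside 2.36% and 4.69% of all genes, and the median log2 fold change was 0.46. mt-Atp6, a subunit of ATP synthase, had 161, 172 and 169 CPM in Ch25h-/- cells and 109, 94.1 and 136 CPM in B6 cells, at 0.56 ± 0.13 (edgeR adjusted p = 0.394, DESeq2 0.0438). Together these transcripts made 2.05, 2.13 and 2.09% of counts in Ch25h-/- cells and 1.59, 1.33 and 1.79% in B6 cells. Without B6 replicate 2, the lowest of them, 5 of 13 had an unadjusted p below 0.05, and without both libraries numbered 2 it was 4. These 13 transcripts come from a single genome and are not independent. Depth also differed between the same groups. With all libraries thinned to the shallowest, all 13 stayed above 0 with a median of 0.45. There 12 were higher at an unadjusted p below 0.05, beside 209 of 12209 genes. The cause of the difference was not tested. The 24 nuclear genes of the respiratory chain had 0 genes at that level and a median of -0.04, and all 24 intervals lay within 1 in either direction.

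Hmox1, heme oxygenase, had 294, 287 and 325 CPM in Ch25h-/- cells and 234, 187 and 219.5 CPM in B6 cells, without overlap, at 0.50 ± 0.13 (edgeR adjusted p = 0.559). Gpx1, a glutathione peroxidase, had 403, 280.3 and 374 CPM in Ch25h-/- cells and 489, 563 and 475 CPM in B6 cells, at -0.53 ± 0.16 (edgeR adjusted p = 0.663). They were the only 2 of 18 NRF2 antioxidant genes at an unadjusted p below 0.05 (5.53% of all genes), in opposite directions. Pfkp, a phosphofructokinase, was the only one of 22 genes of glycolysis and hypoxia at that level (5.53% of all genes). It had 94.3, 45.0 and 72.8 CPM in Ch25h-/- cells and 156, 81.4 and 115 CPM in B6 cells.

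Of 8 measured neutrophil markers none was called by edgeR without pairing, 1 (Ltf) with the block within state and 5 by DESeq2, all higher in Ch25h-/- cells. At an unadjusted p below 0.05 edgeR had 6 higher (2.36% of all genes), and 7 did not overlap between genotypes (4.69%), with a median log2 fold change of 2.67. Ltf, which encodes the granule protein lactoferrin, had 4.41, 19.9 and 7.33 CPM in Ch25h-/- cells and 1.11, 1.28 and 1.54 CPM in B6 cells, at 2.99 ± 0.53 (edgeR adjusted p = 0.113 without pairing, 0.0170 with the block). S100a8, a subunit of calprotectin, had 3.66, 16.5 and 6.02 CPM in Ch25h-/- cells and 0.958, 1.27 and 1.95 CPM in B6 cells, at 2.62 ± 0.47 (edgeR adjusted p = 0.113, DESeq2 1.9e-05). The other DESeq2 calls were Ltf (DESeq2 adjusted p = 0.00040), S100a9 (0.0018), Camp (0.013) and Lcn2 (0.022). Ngp, another granule protein, had 4.16, 23.2 and 6.62 CPM in Ch25h-/- cells and 1.08, 1.25 and 1.93 CPM in B6 cells. Replicate 2 was the highest Ch25h-/- library for each of these genes, and replicates 1 and 3 were also above all B6 libraries. Summed over the 14 listed markers the level was 56.7, 221 and 83.1 CPM in Ch25h-/- cells and 44.7, 91.2 and 54.1 CPM in B6 cells, and none of the 14 was at 0 counts in all 3 libraries of either genotype. Elane and Mpo, early granule proteases of neutrophil precursors, were below 0.5 CPM in each library and were not tested. Without both libraries numbered 2 the median was 1.61 and 5 of 8 had an unadjusted p below 0.05, and without Ch25h-/- replicate 2 alone the median was 1.74.

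Monocyte genes were mixed. F13a1, coagulation factor XIII of monocytes and macrophages, had 108, 99.7 and 106 CPM in Ch25h-/- cells and 24.9, 36.3 and 39.9 CPM in B6 cells, at 1.64 ± 0.43 (edgeR adjusted p = 0.559, 0.0917 with the block). Ccr2, the chemokine receptor that brings monocytes out of the marrow, had 447, 559.8 and 471 CPM in Ch25h-/- cells and 264, 246 and 360.5 CPM in B6 cells, at 0.76 ± 0.20 (edgeR adjusted p = 0.559). Neither overlapped, and these were the 2 of 7 monocyte markers at an unadjusted p below 0.05 (5.53% of all genes). Spn, Plac8 and Cx3cr1 had log2 fold changes of -0.92, -0.46 and -0.26. Of 16 measured genes of the alternative activation list 13 had a log2 fold change above 0 and 3 below, with a median of 0.57. At an unadjusted p below 0.05, 3 were higher and none lower (2.36% and 3.16% of all genes). Libraries did not overlap for 3 on the higher side and 1 on the lower (4.69% and 5.49% of all genes). Chil3, a secreted lectin of this list, had 3.81, 14.3 and 6.97 CPM in Ch25h-/- cells and 1.70, 1.52 and 2.47 CPM in B6 cells, at 2.13 ± 0.54 (edgeR adjusted p = 0.559). Arg1, arginase, was low in both and did not overlap, at 2.38, 0.274 and 0.417 CPM in Ch25h-/- cells and 0.0309, 0.112 and 0.125 CPM in B6 cells. Of 9 measured genes of the osteoclast list, which holds Mmp9, 5 had a log2 fold change above 0 and 4 below, with a median of 0.46. At an unadjusted p below 0.05, 2 were higher and 1 lower (2.36% and 3.16% of all genes). Atp6v0d2, a proton pump subunit, had 137, 125 and 49.5 CPM in Ch25h-/- cells and 36.3, 58.6 and 56.5 CPM in B6 cells. Itgb3 had 14.6, 9.12 and 14.2 CPM in Ch25h-/- cells and 22.8, 26.6 and 21.5 CPM in B6 cells.

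The macrophage list itself was balanced, with 10 of 20 genes above 0 and 10 below and a median log2 fold change near 0. At an unadjusted p below 0.05, 1 gene was higher and 2 lower (2.36% and 3.16% of all genes). Emr1, the F4/80 antigen, was the higher, with 2859, 3916 and 3305 CPM in Ch25h-/- cells and 2397, 2917 and 2610.2 CPM in B6 cells. Cd14 and Cd68 were the lower. Lymphocyte, mast cell and stromal markers were low, with summed levels of 11.5 to 14.9, 0.198 to 1.03 and 5.90 to 21.9 CPM in Ch25h-/- cells and 8.47 to 11.7, 0.0618 to 0.251 and 4.63 to 7.78 CPM in B6 cells. Of 9 tested stromal markers 8 had a log2 fold change above 0, with a median of 0.95, and the median was -0.08 without Ch25h-/- replicate 2. Dendritic cell markers summed to 21.4 to 49.3 CPM in Ch25h-/- cells and 23.9 to 28.2 CPM in B6 cells. Erythroid and megakaryocyte markers summed to 132 to 291 CPM in Ch25h-/- cells and 167 to 184 CPM in B6 cells, nearly all of it Pf4, a platelet chemokine, while the red cell gene Alas2 was at 0 counts in all 6 libraries.

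Many genes varied with the mouse number. In the model of the 6 libraries with both as terms, the number changed 2465 of 12094 genes (20.4%) and the genotype 2. Replicate 2 was the higher in both genotypes for 1152 of them and the lower in both for 1313. By list, 12 of 20 cholesterol synthesis genes and 13 of 30 replication and mitosis genes changed by number. The median difference of replicate 2 from the other replicates over the cholesterol synthesis list was -1.21 (log2) in Ch25h-/- and -0.87 in B6. Mcm4, a subunit of the replicative helicase, had 107, 27.4 and 93.0 CPM in Ch25h-/- cells and 129, 32.8 and 91.6 CPM in B6 cells, lowest in both replicates numbered 2 (edgeR adjusted p for number = 0.0061). Mki67, a marker of dividing cells, had 626, 85.5 and 524 CPM in Ch25h-/- cells and 489, 248 and 591 CPM in B6 cells (edgeR adjusted p for number = 0.0801). Genotype effects on such genes had wide intervals, -1.25 to 1.04 for Mki67. What the number stands for beyond the mouse is not given in the labels.

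Genes around the targeted locus were examined because a targeted allele can carry flanking sequence of another mouse strain. Within 5 Mb of Ch25h on chromosome 19, 54 other genes were tested, of which 0 passed by adjusted p and 6 (11.1%) had an unadjusted p below 0.05, against 5.49% elsewhere. Within 10 Mb the share was 5.79% of 121 genes, and within 20 Mb 5.69% of 211. Lipa, the lysosomal acid lipase, begins next to Ch25h at a distance of 0.0172 Mb and had 1772.5, 1069 and 1477 CPM in Ch25h-/- cells and 1867, 1412 and 1741 CPM in B6 cells, at -0.22 ± 0.16 (edgeR adjusted p = 0.965). Ide, the insulin-degrading enzyme, lies 2.79 Mb away, in a segment known as background to vary in copy number among C57BL/6J mice. It had 84.0, 31.2 and 69.6 CPM in Ch25h-/- cells and 124, 68.3 and 134 CPM in B6 cells, at -0.82 ± 0.28 (edgeR adjusted p = 0.755). Rnls, renalase, at 1.08 Mb on the other side, had 3.71, 3.36 and 3.46 CPM in Ch25h-/- cells and 2.41, 2.24 and 2.49 CPM in B6 cells, at 0.56 ± 0.16 (edgeR adjusted p = 0.663), with narrow groups that did not overlap. The other 4 genes, Prkg1, Asah2, Minpp1 and Btaf1, were lower, at -1.70, -0.49, -0.46 and -0.33 on the log2 scale. Of 6 tested genes of a strain variant list, 2 were lower and none higher at an unadjusted p below 0.05 (3.16% and 2.36% of all genes). The median log2 fold change of that list was -0.28.

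**Figure D5:**
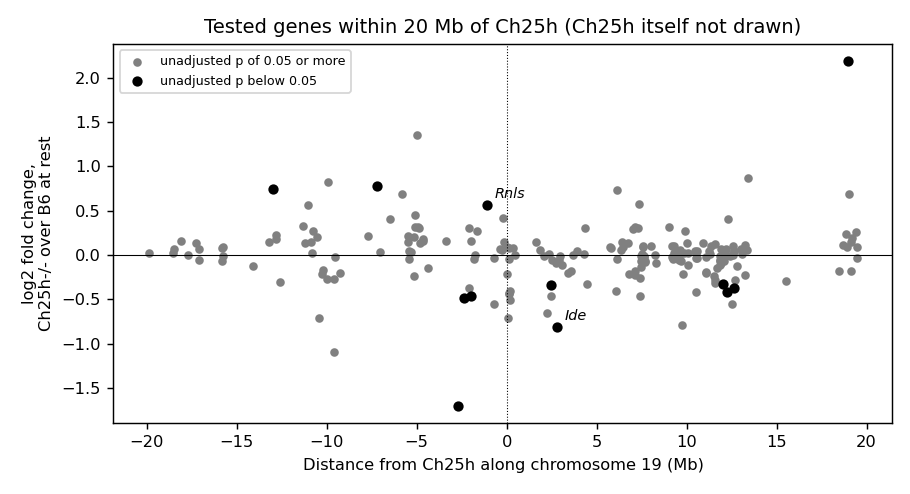
Log2 fold change at rest, Ch25h-/- over B6, of tested genes within 20 Mb of Ch25h by their distance along chromosome 19, with genes at an unadjusted p below 0.05 in black. Within 5 Mb 6 of 54 genes are black, with Ide at -0.82 and Rnls at 0.56, and Ch25h at 0 is not drawn.

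The same genotypes with PAM3 gave 22 calls (0.173%), 6 higher (0.0471%) and 16 lower (0.126%) in Ch25h-/- cells. Their libraries were outside the contrast at rest but inside its model of 18 libraries. With 1 library left out the number of calls ran from 1, without Ch25h-/- replicate 3, to 254, without Ch25h-/- replicate 1. Ch25h was lower there too, with a log2 fold change of -5.64 (edgeR adjusted p = 0.0383). The interaction, which asks whether the genotype difference with PAM3 differs from that at rest, called 0 genes by edgeR, with 598 (4.69%) at an unadjusted p below 0.05 and a smallest adjusted p of 0.481, while DESeq2 called 2 (0.0157%), Irf2bp2 and Rgs11. The block and DESeq2 models that called genes at rest held the PAM3 libraries too. Of the 35 genes other than Ch25h that either called at rest, 32 had the same sign with PAM3. The share was 63.4% over all genes, which were not picked for a difference at rest as the 35 were. Of the 35, 2 passed with PAM3. One was Dusp8, a MAP kinase phosphatase, with 3.42, 1.71 and 1.91 CPM in Ch25h-/- cells and 7.29, 4.91 and 4.92 CPM in B6 cells at rest, at -1.26 ± 0.32, and -2.44 with PAM3 (edgeR adjusted p = 0.0317). The other was Arap3, a regulator of small GTPases, with 102, 79.7 and 118 CPM in Ch25h-/- cells and 162, 164 and 144 CPM in B6 cells at rest, at -0.65 ± 0.15, and -0.84 with PAM3 (edgeR adjusted p = 0.0383). Of the 21 PAM3 calls other than Ch25h, 17 had the same sign at rest (63.4% of all genes). At rest 10 of the 21 had an unadjusted p below 0.05 (5.53% of all genes). Ccr2 and Rnls, not among those 35, were also higher with PAM3, by 1.33 and 1.10 on the log2 scale (edgeR adjusted p = 0.0166 for each). Neutrophil markers were uneven with PAM3 and none passed, with log2 fold changes of 4.23 for Ltf, 3.99 for Ngp, 2.58 for S100a9 and 0.87 for S100a8, and of -0.53 for Camp and -0.91 for Lcn2. Whether equal mouse numbers mark the same animals in both states is not stated in the labels.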

How the data were processed

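The submitters' processing notes name FastQC 0.11.9, GSNAP, featureCounts (Subread 1.5.2), edgeR 3.26.8 and the genome build GRCm38 (mm10). Libraries were stranded TruSeq preparations of polyadenylated RNA, per the labels. The deposited table holds raw gene counts of 30530 genes in 18 libraries; strand setting, multimapping rule and annotation release are not stated there.

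Counts were filtered with filterByExpr, scaled by TMM and tested in edgeR 4.0.16 (R 4.3.3) with the quasi-likelihood F test, 1 mean per group over the 6 groups, and Benjamini-Hochberg adjustment over 12741 genes; the scripts were tested on simulated data. The 18-library model has 12 residual degrees of freedom. CPM values are counts over scaled library size. Symbols and positions came from GENCODE M21 (30118 of 30530 identifiers) and the promoter from RefSeq. DESeq2 1.42.0, other scalings and filters, thinning to equal depth, leaving out libraries and a block by mouse number were alternatives. The block took equal mouse numbers as pairs, which the labels do not state. At rest, deviations of equally numbered libraries correlated at 0.574, 0.705 and 0.327. Ch25h-/- replicate 3 correlated more with B6 replicate 1 (0.407), and B6 replicate 3 more with Ch25h-/- replicate 1 (0.366). With PAM3, equally numbered libraries correlated at 0.322, 0.459 and 0.0949.

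The comparison, its 33 gene lists and the naming rule were chosen with earlier results of these data known. By that rule the text names Ch25h, called genes of at least 5 CPM without overlap, and list members of smallest adjusted p or highest level. The rule also took every tested member of the oxysterol and strain variant lists, of which the text names only some. Outside it, and after their values were seen, it names genes called by the block or DESeq2, pathway genes of known role (Abca1, Abcg1, Insig1, Sqle, Tnf), further markers (Ngp, Lcn2, Mpo, Elane, Plac8, Cx3cr1), Mcm4, Jun, Ier2 and the genes near Ch25h. Depth limits low genes: intervals on summed counts cover counting error only, since reads carry no molecular identifiers. Some list members are not reported here by name.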

Additional observations from a re-analysis of the deposited data

How the results depend on the processing

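The genotype comparison at rest gave 1 call, and it stayed 1 with other scalings, without a filter, with a filter at 1 CPM and after thinning to the shallowest library. With only the groups compared in the model it was 0, so 0 lower. A block by mouse number in the 6 libraries gave 2 (1 higher), and within state over all libraries 23 (10 higher, 13 lower). Chosen after seeing the data, that block without the pair numbered 1, 2 or 3 gave 3 each time, with 1, 2 and 2 higher and 2 lower without number 1. Without both libraries numbered 2 there were 2 (1 higher), and DESeq2 gave 21 (11 higher, 10 lower). With genes within 5, 10 or 20 Mb of Ch25h left out it was 0, since Ch25h is left out too. Leaving out 1 library gave 0 to 4 calls, 0 to 2 higher and 0 to 2 lower: 4 without Ch25h-/- replicate 1, 0 without replicate 3, and without replicate 2 only Colec12. With PAM3, 22 calls became 14 by library totals, 13 without a filter, 0 with only the groups compared, 381 and 539 with the blocks, 9 after thinning, 404 with DESeq2 and 1 to 254 without 1 library. The interaction gave 2 with DESeq2 and 0 otherwise. For 202 named genes, 3522 of 3818 alternative values kept their size and call, 239 moved, 54 became calls, 3, all of Ch25h, lost theirs, and 0 reversed. The cause of these differences was not tested. B6 libraries were deeper at rest, and depth limits Ch25h-/- values near 0.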

Other observations

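Circadian clock genes were measured as a further list, with none called over all genes by edgeR. At an unadjusted p below 0.05, 2 of 15 were higher and 1 lower (2.36% and 3.16% of all genes). Nr1d2, the repressor REV-ERB beta, had 105, 106 and 98.1 CPM in Ch25h-/- cells and 56.5, 73.0 and 82.3 CPM in B6 cells, at 0.54 ± 0.19 on the log2 scale. Npas2, a partner of the clock activator, had 1.83, 1.17 and 2.15 CPM in Ch25h-/- cells and 2.97, 3.01 and 3.12 CPM in B6 cells, at -0.81 ± 0.23. Neither overlapped between genotypes. The labels do not give the hour at which the cultures were harvested.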
